A study of Mus musculus with 29 samples.

Results

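Brain metastases of mice given trametinib together with an antibody against PD-L1 (the concurrent combination, day 3) were set against untreated brain metastases (day 0) by their T cell receptor chains. The samples were chosen by organ and treatment label alone, which gave 7 of the 29 samples in the series, 4 of the concurrent combination and 3 untreated. The series counted receptor transcripts in brain and ovary metastases of an experimental metastasis model of Braf-mutated mouse melanoma under 5 treatments. Its title asks whether anti-PD-L1 given ahead of a MAPK inhibitor combination is of benefit, and the label of the concurrent arm names no lead-in. Trametinib inhibits MEK, a kinase of the MAPK pathway, and anti-PD-L1 blocks a ligand through which PD-1 restrains T cells.

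The concurrent samples were parts 1 and 2 of number 1 and parts 1 and 2 of number 6, written here as 1-1, 1-2, 6-1 and 6-2. The untreated samples, which carry a no-treatment label and the word vehicle in their titles, were parts 1 and 2 of number 3 (3-1 and 3-2) and the single sample of number 7. What a number or a part stands for, such as an animal or a piece of a metastasis, is not told by the labels, nor do those used here name the mouse strain, the melanoma line, the doses or the schedule. P-values therefore measure only the spread between these numbers or samples, which may be technical. The edgeR tests also draw on the spread of other segments or length classes. All concurrent samples were of day 3 and all untreated samples of day 0, so day and treatment cannot be told apart in any comparison given here. No marker outside the receptor genes was counted, so the labelled tissue could not be checked.

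A T cell receptor pairs an alpha chain (TRA) with a beta chain (TRB), each assembled by joining a V segment to a J segment, with a D segment between them in the beta chain. The join forms the CDR3 loop, which varies most between cells and contacts the antigen. Most T cells carry a receptor of their own, and cells that share one usually descend from a common ancestor, while invariant natural killer T (iNKT) cells and mucosal-associated invariant T (MAIT) cells carry near-fixed alpha chains. A clonotype is here the combination of a CDR3 protein sequence with its V and J segments.

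Brain metastases of the concurrent combination yielded about 4 times as many receptor counts as untreated ones, with no overlap between the samples of the groups. They also held a wider set of clonotypes at equal depth, again without overlap. Equal depth evens out counts but not the cells or RNA put in. The leading beta clonotypes of each number were absent from the other numbers compared, in both groups. TRAJ18 rearrangements took a smaller mean share of alpha counts in concurrent samples, 3.0% against 12.5% in untreated samples, but 1 of the 3 untreated samples lay within the concurrent range. None of the V segments, J segments or CDR3 lengths passed the adjusted test over the 10 brain numbers. TRAJ18 passed with only the 4 numbers compared in the fit, and with parts, which are not independent, as separate libraries. Its log2 difference shrank from -1.72 to -0.38 without untreated number 3.

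The clonotypes that led each number are printed because they show which receptors carried the counts. The 3 beta clonotypes of highest mean share in concurrent number 1 used TRBV16 with TRBJ1-1, TRBV13-1 with TRBJ1-1, and TRBV14 with TRBJ2-1.
Number 1, TRBV16 and TRBJ1-1: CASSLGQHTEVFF
Number 1, TRBV13-1 and TRBJ1-1: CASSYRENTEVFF
Number 1, TRBV14 and TRBJ2-1: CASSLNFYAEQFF
Number 6, TRBV4 and TRBJ2-3: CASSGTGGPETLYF
Number 6, TRBV31 and TRBJ1-3: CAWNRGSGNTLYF
Number 3, TRBV16 and TRBJ2-7: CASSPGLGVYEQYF
Number 3, TRBV16 and TRBJ2-7: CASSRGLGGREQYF
Number 3, TRBV29 and TRBJ1-2: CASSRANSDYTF
Number 7, TRBV29 and TRBJ2-1: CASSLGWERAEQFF
Number 7, TRBV2 and TRBJ2-3: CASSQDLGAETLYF
Number 7, TRBV12-2 and TRBJ2-3: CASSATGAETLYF
Number 6 had a further leading clonotype of TRBV13-2 with TRBJ2-1 and a CDR3 of 16 residues, which is described by its segments only, like other CDR3 sequences of over 14 residues. Each of these 12 was absent from the other 3 numbers compared.

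The TRBV16 clonotype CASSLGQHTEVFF had 72 counts in 1-1, which was 5.24% of its beta counts (95% interval 4.13 to 6.56), and 14 counts in 1-2, or 0.438% (0.240 to 0.734). These are exact intervals by the Clopper-Pearson method, as are those given further on, and they cover counting error only. The TRBV4 clonotype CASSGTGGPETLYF was the largest beta clonotype of the comparison, with 132 counts in 6-1 (10.2%, 8.57 to 11.9) and 1 count in 6-2 (0.0655%, 0.00166 to 0.364). The 16-residue TRBV13-2 clonotype lay the other way round, with 97 counts in 6-2 (6.35%, 5.18 to 7.69) and 0 of 1300 beta counts in 6-1. The leading clonotypes of number 6 thus differed between its parts by more than counting error, whereas the TRBV31 clonotype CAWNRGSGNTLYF took a like share of both, 2.00% in 6-1 and 2.29% in 6-2.

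In untreated number 3 the leading beta clonotypes were also unevenly split. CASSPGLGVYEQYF had 1 count in 3-1 and 11 in 3-2, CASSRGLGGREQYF had 11 in 3-1 and 0 in 3-2, and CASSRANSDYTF had 10 in 3-1 and 0 in 3-2. At 302 and 320 beta counts, 11 counts made 3.64% of 3-1 (1.83 to 6.42) and 3.44% of 3-2 (1.73 to 6.07). The 3 leading clonotypes of number 7 held 12, 9 and 8 counts, or 1.98%, 1.49% and 1.32%. The largest beta clonotype of a sample therefore ranged from 1.66% to 10.2% in the concurrent group and from 1.98% to 3.64% in the untreated group, and these ranges overlapped.

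Alpha chains are shared more widely between individuals than beta chains, since they have no D segment. The leading alpha clonotypes of up to 14 residues are printed below. Leading ones of 15 residues are described by their segments. In number 6, TRAV7N-4 with TRAJ6 had 82 counts in 6-1 (4.83%) and 32 in 6-2 (1.67%). The largest of number 7 was TRAV7D-2 with TRAJ22, at 29 counts (4.57%). TRAV11N with TRAJ18 in number 3 and TRAV7-1 with TRAJ18 in number 7 are given further on. Among those printed, only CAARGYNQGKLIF was found in more than 1 of the numbers compared. It led numbers 1 and 3 and was also present in number 6.
Number 1, TRAV8-1 or TRAV8D-1 and TRAJ35: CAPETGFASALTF
Number 1, TRAV8-1 or TRAV8D-1 and TRAJ31: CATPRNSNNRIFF
Numbers 1, 6 and 3, TRAV7D-2 and TRAJ23: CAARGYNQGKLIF
Number 6, TRAV7D-2 and TRAJ23: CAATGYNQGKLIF
Number 6, TRAV16 and TRAJ16: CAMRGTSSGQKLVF
Number 3, TRAV7D-2 and TRAJ18: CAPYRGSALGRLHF
Number 7, TRAV7N-6 and TRAJ39: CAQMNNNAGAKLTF
The TRAV7D-2 clonotype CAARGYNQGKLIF had 52, 166, 30 and 12 counts in the concurrent samples 1-1, 1-2, 6-1 and 6-2, against 0, 24 and 0 counts in the untreated samples 3-1, 3-2 and 7. Its share in 3-2, 6.49% (4.20 to 9.50), was above every concurrent share, which ran from 0.626% to 3.89%. It was found in 9 of the 10 brain numbers of the series and in all 5 ovary numbers. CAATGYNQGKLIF had 36 counts in 6-1 and 136 in 6-2 (7.09%, 5.98 to 8.33) and was in no other number compared, although it uses the same V and J segments and has the same length. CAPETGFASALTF, with 61 counts in 1-1 and 157 in 1-2, held nearly the same share of both parts, 3.59% and 3.68%.

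Receptor yield separated the groups. The concurrent samples 1-1, 1-2, 6-1 and 6-2 held 1373, 3195, 1300 and 1527 beta counts, against 302, 320 and 605 in the untreated samples 3-1, 3-2 and 7. Alpha counts were 1697, 4272, 1698 and 1918 in the concurrent samples, against 363, 370 and 635 in the untreated samples. The lowest concurrent sample had more of either chain than the highest untreated sample, number 7. With the parts of a number averaged on the log2 scale, the concurrent numbers were 1.99 log2 units higher for beta chains (3.96-fold) and 2.19 log2 units higher for alpha chains (4.57-fold). The exact two-sided permutation test over 2 against 2 numbers gave p = 0.333 for both, the smallest value this design allows, and adjusted p = 0.5 over 6 measures. Over samples (4 against 3) the exact permutation p was 0.0571, again the smallest possible, with adjusted p = 0.0857, and it treats parts of a number as independent. Leaving out any number or sample kept the difference positive, between 1.51 and 2.47 log2 units for beta and between 1.80 and 2.59 for alpha. The amount of RNA put into each library is not given in the sources used here, and fewer T cells and less receptor RNA per cell cannot be told apart.

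The ratio of alpha to beta counts was also higher in each concurrent sample, at 1.24, 1.34, 1.31 and 1.26, against 1.20, 1.16 and 1.05 in the untreated samples. The difference was 0.21 on the log2 scale (exact permutation p = 0.333 over numbers and 0.0571 over samples, with adjusted p = 0.4 over 7 measures in the test over samples).

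Richness was compared at equal depth, as the expected number of clonotypes among 302 beta or 363 alpha counts, the lowest totals of the 7 samples. For beta chains it was 213, 235, 181 and 196 clonotypes in the concurrent samples, against 131, 140 and 175 in the untreated samples. For alpha chains it was 214, 249, 207 and 219 in the concurrent samples, against 110, 128 and 166 in the untreated samples. The groups did not overlap for either chain, but number 7 of the untreated group lay close below 6-1 for beta. Over numbers the concurrent group was 0.41 log2 units higher for beta (1.33-fold) and 0.66 log2 units higher for alpha (1.58-fold), with an exact permutation p of 0.333 for both and adjusted p = 0.5. Over samples p was 0.0571 and adjusted p 0.0857, by the same exact test. Leaving out a number or sample gave 0.23 to 0.60 log2 units for beta and 0.42 to 0.90 for alpha, the lowest values being those without number 3. In the ovary of untreated number 3, with 24408 and 18871 beta counts, beta richness was 210 and 206. It was 197 and 196 in the ovary of concurrent number 1. Whether the richness difference in the brain goes beyond the difference in yield was not tested.

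**Figure D1:**
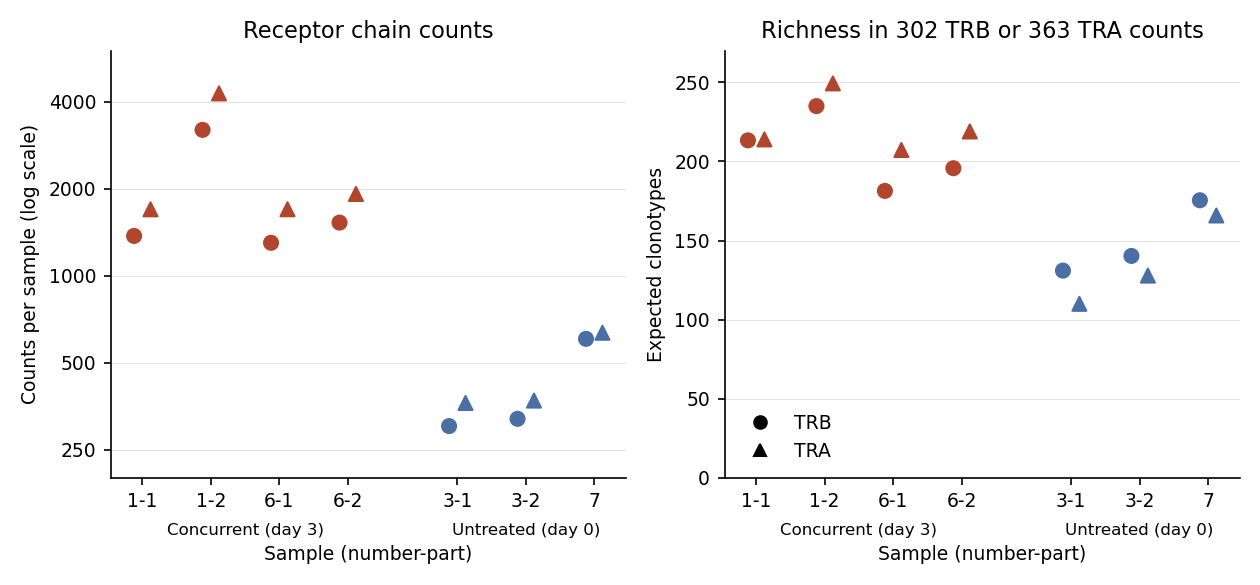
Counts of the alpha chain (triangles) and beta chain (circles) per sample on a log axis (left), and the expected number of clonotypes at equal depth (right), with 4 concurrent samples in red and 3 untreated samples in blue. Every concurrent point lies above every untreated point of the same chain, with beta richness of 181 in sample 6-1 nearest to 175 in sample 7.

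Concentration of the repertoire did not separate the groups. The Simpson concentration, the chance in percent that a pair of counts drawn from a sample belongs to the same clonotype, was 0.555%, 0.236%, 1.49% and 0.757% for beta chains in the concurrent samples 1-1, 1-2, 6-1 and 6-2, against 0.884%, 0.756% and 0.454% in the untreated samples 3-1, 3-2 and 7. Sample 6-1, which holds the TRBV4 clonotype above, was the highest and 1-2 the lowest of the 7. The difference over numbers was 0.122 percentage points (exact permutation p = 1), and without concurrent number 6 it turned to -0.241. For alpha chains the concentration was 0.658%, 0.533%, 0.867% and 0.967% in the concurrent samples, against 1.72%, 1.75% and 0.804% in the untreated samples. The alpha difference of -0.513 percentage points (exact permutation p = 0.667, adjusted p = 0.8) rested on number 3, without which it was -0.0475.

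The 10 largest clonotypes of a sample, taken at equal depth, held 18.2%, 13.1%, 27.9% and 20.9% of beta counts in the concurrent samples, against 22.8%, 20.6% and 15.4% in the untreated samples. For alpha chains they held 21.3%, 18.9%, 25.2% and 22.5% in the concurrent samples, against 33.6%, 33.8% and 21.2% in the untreated samples. Both untreated parts of number 3 were above all concurrent samples for alpha, and number 7 was among them. Over numbers the differences were 1.45 percentage points for beta and -5.48 for alpha (exact permutation p = 0.667 and adjusted p = 0.667 for both), and without number 3 the alpha difference turned to 0.779.

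Parts of a number shared far more than different numbers did. The Morisita-Horn index, which is 0 for repertoires with nothing in common and 100% for equal ones, was 32.4% between the parts of concurrent number 1 and 13.6% between those of number 6, against 7.63% between the parts of untreated number 3, for beta chains. Between different numbers it ran from 0% to 0.782% over 18 pairs. Of the 10 largest beta clonotypes, 9 of 1-1 were also in 1-2 and 9 of 1-2 in 1-1, while 8 of 6-1 were in 6-2 and 6 of 6-2 in 6-1. In untreated number 3, 0 of the 10 largest of 3-1 were in 3-2, and 2 of the 10 largest of 3-2 were in 3-1. The untreated parts held 302 and 320 beta counts, against 1300 or more in each concurrent part, and the part of depth in this difference was not tested. For alpha chains the index was 68.4% within number 1, 37.5% within number 6 and 38.5% within untreated number 3, and it ran from 0.808% to 26.1% between different numbers.

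**Figure D2:**
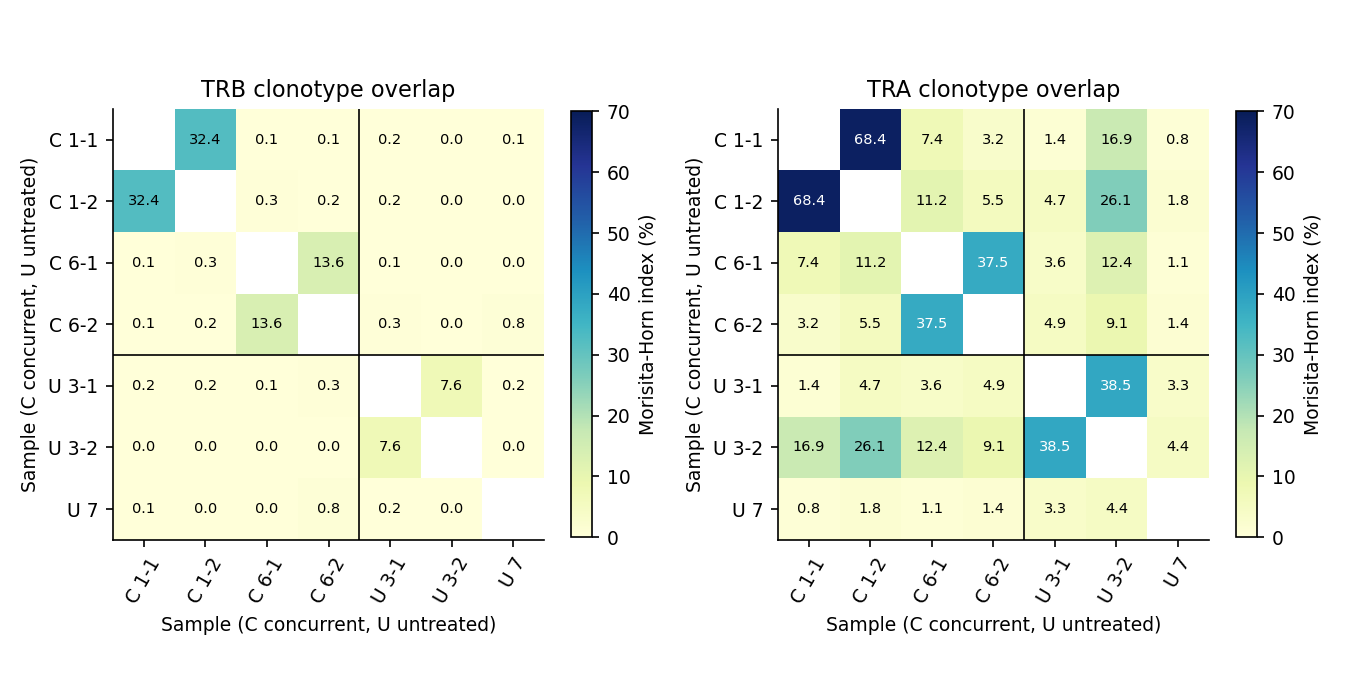
Morisita-Horn overlap in percent for every pair of samples, beta chains left and alpha chains right, with the concurrent samples (C) above and left of the untreated ones (U). Beta overlap is highest between the parts of a number (32.4%, 13.6% and 7.63%) and is at most 0.782% for the other 18 pairs, while alpha overlap between different numbers reaches 26.1%, between 1-2 and 3-2.

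Few beta clonotypes crossed the groups. Of 2315 beta clonotypes in either concurrent number and 507 in either untreated number, 4 were in both, which is 0.173% of the concurrent set and 0.789% of the untreated set. For alpha chains 20 were in both, 0.873% of 2291 concurrent and 4.57% of 438 untreated clonotypes. The 2 concurrent numbers had 14 beta clonotypes in common, 0.957% of the 1463 of number 1 and 1.62% of the 866 of number 6. The 2 untreated numbers had 1 in common, of 264 in number 3 and 244 in number 7. Between the groups, number 1 shared 4 with number 3 (1.52% of those of number 3) and 1 with number 7 (0.410%). Number 6 shared 2 with number 3 (0.758%) and 1 with number 7 (0.410%). The untreated numbers had fewer counts, and sharing within against between groups was not tested. The 3 beta clonotypes of highest mean share among those in both numbers of a group are shown, since they were not private.
All 4 numbers, TRBV20 and TRBJ2-7: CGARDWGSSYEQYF
Numbers 1 and 6, TRBV2 and TRBJ1-1: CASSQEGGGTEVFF
Numbers 1, 6 and 3, TRBV3 and TRBJ1-3: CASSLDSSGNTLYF
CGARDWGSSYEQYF was the only beta clonotype in all 4 numbers, with 1, 0, 0 and 13 counts in the concurrent samples against 1, 0 and 4 in the untreated samples, and it was found in 8 of the 10 brain numbers. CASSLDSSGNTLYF had 1, 3, 2 and 0 counts in the concurrent samples against 3, 0 and 0 in the untreated samples, and it was in 7 brain and all 5 ovary numbers. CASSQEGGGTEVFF had 0, 2, 5 and 14 counts in the concurrent samples and none in the untreated ones.

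TRAJ18, the J segment of the iNKT alpha chain, had the lowest p of all J segments. It made 1.71%, 3.04%, 3.12% and 4.12% of alpha counts in the concurrent samples 1-1, 1-2, 6-1 and 6-2, against 18.2%, 15.1% and 4.09% in the untreated samples 3-1, 3-2 and 7. Both parts of number 3 stood far above the others, and number 7 lay just below 6-2. The log2 difference was -1.72 ± 0.54 (SE, 2 numbers each, edgeR quasi-likelihood adjusted p = 0.269 over 53 J segments). With only the 4 numbers in the fit, the same edgeR test called it (adjusted p = 0.00549). That fit draws its spread partly from other segments, so its p does not measure the spread of TRAJ18 alone. With parts summed, the untreated numbers lay apart, at 16.6% in number 3 and 4.09% in number 7. Without untreated number 7, which left number 3 alone as untreated, the log2 difference was -2.40. With each part as its own library the edgeR adjusted p was 0.00363. That p is too small because parts of a number share clonotypes and are not independent. Without untreated number 3 the log2 difference shrank to -0.38.

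The iNKT alpha chain itself joins TRAV11, or its copies TRAV11D and TRAV11N, to TRAJ18. It had 7, 70, 21 and 33 counts in the concurrent samples, which were 0.412%, 1.64%, 1.24% and 1.72% of alpha counts. The untreated samples had 32, 35 and 7 counts, which were 8.82% (6.11 to 12.2) in 3-1, 9.46% (6.68 to 12.9) in 3-2 and 1.10% (0.444 to 2.26) in number 7. The shares of 3-1 and 3-2 were above every concurrent sample beyond counting error, and that of number 7 was within the concurrent range. Over numbers the difference was -3.87 percentage points (exact permutation p = 0.667, adjusted p = 0.667 over 7 measures), and without number 3 it was 0.150. As absolute counts rather than shares, the number 3 parts were within the range of the concurrent samples. Such counts do not measure cell numbers, since the RNA put into each library is not given.

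The leading iNKT chain had the same 15-residue CDR3 in all 4 numbers, in the form assigned to TRAV11N. It had 7, 46, 16 and 24 counts in the concurrent samples, against 16, 25 and 6 in the untreated samples, and was in all 10 brain and 5 ovary numbers. The same CDR3 assigned to TRAV11 or TRAV11D had 0, 12, 4 and 8 counts in the concurrent samples against 16, 4 and 1 in the untreated samples. These copies are near-identical, so how reads were divided among them is uncertain. TRAV11N as a whole had a log2 difference of -1.68 ± 0.85 (SE, edgeR adjusted p = 0.767), which turned to 0.20 without number 3.

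TRAJ18 was also lower outside the iNKT chain, where 1 clonotype held most of the counts in each untreated number. Joined to a V segment other than TRAV11, it made 1.30%, 1.40%, 1.88% and 2.40% of alpha counts in the concurrent samples, against 9.37%, 5.68% and 2.99% in the untreated samples, with no overlap. In number 3 these counts were mostly the TRAV7D-2 clonotype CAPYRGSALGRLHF, with 26 counts in 3-1 (7.16%, 4.73 to 10.3) and 18 in 3-2 (4.86%, 2.91 to 7.58). All such counts were 34 in 3-1 and 21 in 3-2. In number 7 a TRAV7-1 clonotype of 15 residues held 14 of its 19 such counts. The lack of overlap is therefore not read as a result about TRAJ18 as a whole, and shares without these clonotypes were not computed.

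**Figure D3:**
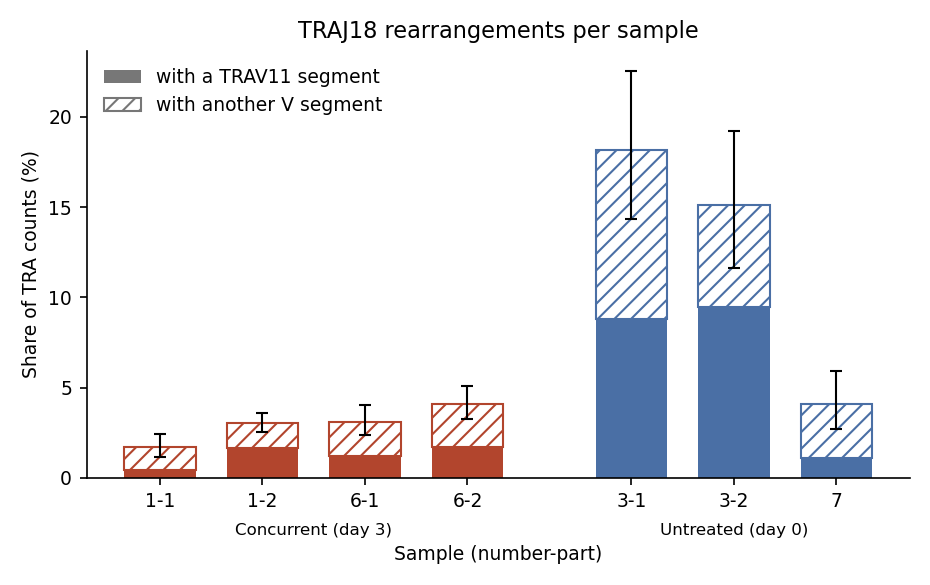
TRAJ18 rearrangements as a percentage of alpha counts per sample, split into those with a TRAV11 segment (filled, the iNKT chain) and those with another V segment (hatched); error bars are exact 95% intervals of the sum and cover counting error only. The concurrent samples (1.71% to 4.12%) and untreated sample 7 (4.09%) lie in the same range, and the untreated parts 3-1 and 3-2 (18.2% and 15.1%) stand above them.

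The MAIT alpha chain joins TRAV1 to TRAJ33, and it had 0 counts in all 7 samples. Taking counts as independent, 0 counts leave room for a share of up to 0.0702% in 1-2, the deepest concurrent sample. The room is up to 0.826% in 3-1, the shallowest untreated sample. TRAV1 had 7 of 9585 alpha counts in the concurrent samples and 0 of 1368 in the untreated samples, which allows up to 0.219%, so no difference was detectable. TRAJ33, which many other alpha chains use, made 4.12%, 1.83%, 1.94% and 2.40% of alpha counts in the concurrent samples, against 6.06%, 4.32% and 6.46% in the untreated samples. Its log2 difference was -1.32 ± 0.63 (SE, edgeR adjusted p = 0.33).

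Usual beta partners of the iNKT chain are TRBV13-1, TRBV13-2, TRBV13-3, TRBV29 and TRBV1. TRBV1 made 8.08%, 7.92%, 5.23% and 4.13% of beta counts in the concurrent samples, against 10.6%, 9.69% and 10.2% in the untreated samples, with no overlap (log2 difference -0.69 ± 0.42, edgeR adjusted p = 0.767). It was -0.35 without concurrent number 6 and -1.14 without concurrent number 1. TRBV13-2, the most used beta segment of the concurrent group, averaged 9.67% ± 3.78 in concurrent samples (SD, n = 4) and 10.2% ± 2.57 in untreated samples (SD, n = 3). TRBV29 averaged 8.29% in concurrent samples and 8.03% in untreated samples, and TRBV13-3 averaged 2.74% in concurrent samples and 2.77% in untreated samples. The direction of TRBV13-2, TRBV29 and TRBV13-3 flipped when single samples were left out, and that of TRBV29 also with TMM scaling. TRBV13-1 averaged 7.65% in concurrent samples and 5.14% in untreated samples, and 6-2, at 3.86%, was below all untreated samples. Of the 12 tested segments of the iNKT and MAIT lists, 3 had a positive and 9 a negative log2 difference and 0 passed. Over all segments, 49 of 99 V and 31 of 53 J differences were positive. The list median was -0.49, beside -0.0046 over all V segments and 0.16 over all J segments. The 9 are not separate results, since TRAJ18 and the TRAV11 names partly count the same iNKT chain. Without number 3 the log2 difference was -0.38 for TRAJ18, 0.20 for TRAV11N and 0.87 for TRAV11 or TRAV11D.

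TRBV19, a usual beta partner of the MAIT chain and the most used beta segment of the untreated group, made 9.40%, 8.64%, 8.38% and 8.97% of beta counts in the concurrent samples, against 13.6%, 9.38% and 10.1% in the untreated samples. Sample 1-1 lay just above 3-2, so the groups overlapped (log2 difference -0.29 ± 0.39, edgeR adjusted p = 0.894). TRAV7D-2 was the most used alpha segment of both groups, at 10.4%, 11.7%, 13.8% and 15.0% in the concurrent samples, against 17.4%, 15.9% and 12.9% in the untreated samples (log2 difference -0.20 ± 0.32, edgeR adjusted p = 0.894). Its sign turned with TMM scaling, to 0.11.

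Over all V segments, 99 of 173 names had enough counts to be tested, 21 of the beta and 78 of the alpha chain. edgeR called 0 higher (0.0%) and 0 lower (0.0%), 4 had an unadjusted p under 0.05 (4.04%), and the lowest adjusted p was 0.767. DESeq2 called 0 as well, with 7 at an unadjusted p under 0.05. All 4 concurrent samples lay above the 3 untreated ones for 6 segments (6.06%) and below them for 5 (5.05%).

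**Figure D4:**
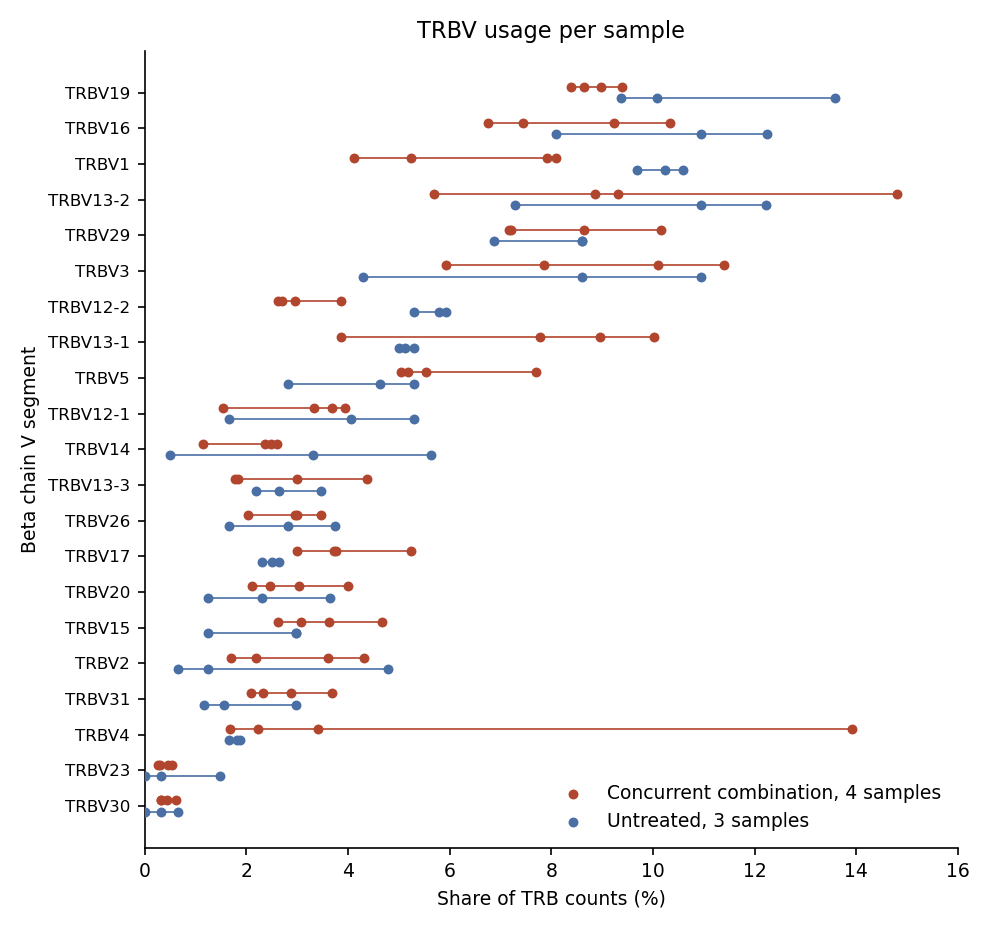
Share of beta counts in percent for the 21 tested beta V segments, ordered by their untreated mean, with each of the 4 concurrent samples (red) and 3 untreated samples (blue) as a point and a line over the range. TRBV1 and TRBV12-2 are lower and TRBV17 is higher in every concurrent sample, and the TRBV4 point at 13.9% is sample 6-1; no segment passed the adjusted test.

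Among beta segments, TRBV12-2 made 3.86%, 2.63%, 2.69% and 2.95% in the concurrent samples, against 5.30%, 5.94% and 5.79% in the untreated samples. The groups did not overlap, and the log2 difference was -0.97 ± 0.56 (SE, edgeR adjusted p = 0.767). TRBV17, named after its values were seen, was the tested beta segment that lay higher in every concurrent sample, at 3.71%, 3.0%, 3.77% and 5.24%, against 2.65%, 2.50% and 2.31% in the untreated samples (log2 difference 0.67 ± 0.56, edgeR adjusted p = 0.827). TRBV4 made 1.68%, 2.22%, 13.9% and 3.41% in the concurrent samples, against 1.66%, 1.88% and 1.82% in the untreated samples. Sample 6-1 stood apart through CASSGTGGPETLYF, which held 133 of the 233 TRBV4 counts of number 6. The log2 difference of TRBV4, 1.52 ± 0.74 (SE, edgeR adjusted p = 0.767), was 0.20 without number 6.

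Alpha V segments with the lowest p-values were rare ones. TRAV7D-6 had 49 of 9585 alpha counts in the concurrent samples (0.511%), found in all 4, and 0 of 1368 in the untreated samples. Against a floor of 3 counts over the untreated group, the concurrent share was 2.33-fold higher (edgeR adjusted p = 0.767). That is no lower bound, since the floor treats counts as independent. The 49 counts were of 6 clonotypes in number 1 and 6 in number 6. TRAV13N-1 made 2.53%, 1.10%, 0.589% and 0.886% in the concurrent samples, against 0.275%, 0% and 0.157% in the untreated samples, where it rested on 2 counts. Its log2 difference was 2.93 ± 1.36 (SE, edgeR adjusted p = 0.767), and in number 1 the clonotype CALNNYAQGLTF held 32 of its 90 counts. TRAV5-1 went the other way, at 0.0589%, 0.187%, 0.118% and 0% in the concurrent samples against 1.10%, 1.35% and 0.945% in the untreated samples, with a log2 difference of -3.33 ± 1.35 (SE, edgeR adjusted p = 0.767). That difference came from 11 counts in the concurrent group and 15 in the untreated group.

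TRAV16D/DV11 or TRAV16N, a joined name for copies that were not separated, made 3.54%, 2.55%, 4.77% and 3.39% in the concurrent samples, against 1.10%, 2.43% and 1.26% in the untreated samples (log2 difference 1.17 ± 0.74, edgeR adjusted p = 0.767). Samples 1-2 and 3-2 nearly touched. A single 15-residue clonotype held 75 of its 146 counts in number 6. The joined name TRAV7-4 or TRAV7D-4 averaged 1.19% in concurrent samples and 0.610% in untreated samples, with overlap. TRAV8D-2 had 1 count in the concurrent samples and 5 in the untreated ones, and TRAV2 had 2 and 3, so neither share is well measured. The joined name TRAV12-1 or TRAV12N-1 had all 16 of its untreated counts in number 7, and without that number its log2 difference of -3.31 changed sign.

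Over all J segments, 53 were tested. edgeR called 0 higher (0.0%) and 0 lower (0.0%), 6 had an unadjusted p under 0.05 (11.3%), and DESeq2 called 0, with 10 at an unadjusted p under 0.05. For 4 segments every concurrent sample lay above the untreated ones (7.55%), and for 4 below (7.55%). In all, 15 V and J segments with a mean share of 1% or more separated the samples in this way, 8 higher and 7 lower in the concurrent group. Their share of all segments of that size was not computed, so the count is not read as a result.

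TRAJ39, TRAJ33, TRAJ26 and TRBJ1-4 lay lower in every concurrent sample. TRAJ39 made 1.83%, 1.57%, 2.53% and 1.15% of alpha counts in the concurrent samples, against 4.13%, 6.76% and 5.35% in the untreated samples (log2 difference -1.65 ± 0.63, edgeR adjusted p = 0.312). In number 7 the TRAV7N-6 clonotype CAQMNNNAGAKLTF held 17 of the 34 TRAJ39 counts. TRAJ26 made 4.01%, 2.50%, 4.65% and 4.01% in the concurrent samples, against 7.16%, 5.41% and 7.40% in the untreated samples (log2 difference -0.92 ± 0.47, edgeR adjusted p = 0.362). TRBJ1-4 made 5.39%, 5.32%, 4.46% and 3.14% of beta counts in the concurrent samples, against 7.28%, 8.75% and 7.60% in the untreated samples (log2 difference -0.78 ± 0.38, edgeR adjusted p = 0.33). Its largest clonotype held at most 15.2% of its counts in any number, so no single clonotype carried its share.

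TRAJ12, TRAJ40 and TRAJ5 lay higher in every concurrent sample. TRAJ12 made 2.77%, 4.0%, 2.65% and 3.34% in the concurrent samples, against 1.38%, 2.43% and 0.315% in the untreated samples (log2 difference 1.56 ± 0.72, edgeR adjusted p = 0.33). That difference was 0.80 without untreated number 7 and 3.40 without untreated number 3. TRAJ40 averaged 2.61% in concurrent samples and 0.827% in untreated samples (log2 difference 1.48 ± 0.71, edgeR adjusted p = 0.33), and all 5 of its counts in number 3 were of 1 clonotype. TRAJ5 averaged 1.18% in concurrent samples and 0.0901% in untreated samples, where it had 1 count. A 15-residue clonotype held 28 of its 39 counts in concurrent number 6.

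TRAJ23, the J segment of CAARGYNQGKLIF and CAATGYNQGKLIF, made 7.78%, 11.1%, 8.13% and 11.7% in the concurrent samples, against 1.38%, 12.4% and 4.41% in the untreated samples. Sample 3-2 was the highest of all 7 and 3-1 the lowest, although both are parts of number 3. The log2 difference was 0.82 ± 0.31 (SE, edgeR adjusted p = 0.312), and it ranged from 0.28 without 3-1 to 1.74 without 3-2, where it passed with edgeR adjusted p = 0.0261. The pair TRAV7D-2 with TRAJ23 made 5.30%, 6.09%, 4.42% and 8.08% in the concurrent samples, against 0%, 8.65% and 0% in the untreated samples. TRAJ35, at a mean of 2.23% in concurrent samples and 0.0918% in untreated samples, was carried by number 1, where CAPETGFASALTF held 218 of 249 counts.

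**Figure D5:**
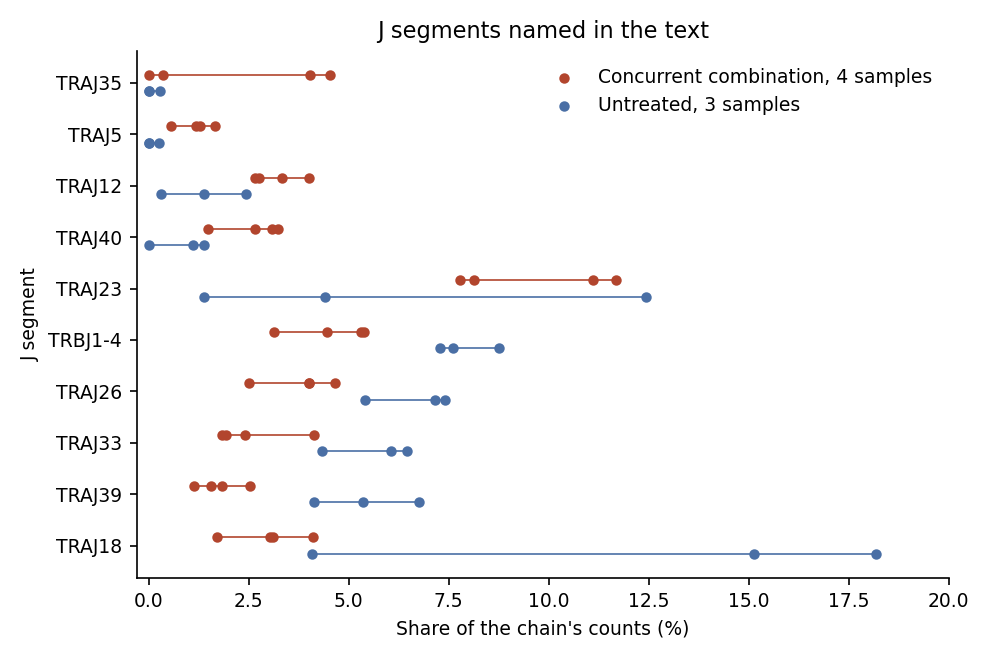
Share of the chain's counts in percent for the J segments named in the text, sorted by log2 difference, with the 4 concurrent samples (red) and the 3 untreated samples (blue) as points and a line over the range. TRAJ39, TRAJ33, TRAJ26 and TRBJ1-4 lie lower in all concurrent samples, whereas the low end of TRAJ18 in untreated samples, 4.09% in number 7, meets the concurrent range.

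CDR3 length differed little. Mean beta CDR3 length was 13.75, 13.90, 13.98 and 14.27 residues in the concurrent samples, against 13.93, 13.84 and 13.68 in the untreated samples, a difference of 0.19 residues over numbers (exact permutation p = 0.667). Mean alpha CDR3 length averaged 13.54 residues in concurrent samples and 13.56 in untreated samples. Of 19 length classes edgeR called 0 in either direction (0.0%), 0 had an unadjusted p under 0.05, and DESeq2 had 2 at that level and called 0. Alpha CDR3s of 12 residues made 12.02%, 10.56%, 13.25% and 13.03% of alpha counts in the concurrent samples, against 15.2%, 15.9% and 15.3% in the untreated samples, the 1 class without overlap (5.26%; log2 difference -0.36 ± 0.19, edgeR adjusted p = 0.562). The TRBJ2 cluster made 60.2%, 64.6%, 64.4% and 64.1% of beta counts in the concurrent samples, against 61.6%, 64.7% and 67.8% in the untreated samples, with overlap (difference over numbers -2.14 percentage points, exact permutation p = 0.667).

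Numbers 1 and 3 were also sampled in the ovary, with 2 parts each. Beta overlap between brain and ovary samples of the same number ran from 10.7% to 51.8%, against at most 0.610% between organs for different numbers. All 3 leading beta clonotypes of brain number 1 were in the ovary of number 1, with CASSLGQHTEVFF at 857 and 417 counts (3.45% and 1.99%). Of number 3, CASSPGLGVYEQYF had 170 and 164 ovary counts and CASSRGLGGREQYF 66 and 90, and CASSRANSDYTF had none. The TRAJ18 clonotype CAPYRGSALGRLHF was large in the ovary of number 3, with 6377 and 3100 counts (17.0% and 14.3% of alpha counts), and TRAJ18 as a whole made 4.34% and 5.70% of alpha counts in the ovary of concurrent number 1, against 23.1% and 20.7% in the ovary of untreated number 3. The iNKT chain ran the other way in the ovary, at 2.99% and 4.87% of alpha counts in concurrent number 1, against 1.75% and 2.08% in untreated number 3. With 1 number per treatment in the ovary there is no test of treatment there.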

How the data were processed

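The authors deposited 1 table of raw, unnormalized counts, in which each line is a receptor chain with its V and J names and its translated CDR3. Per the labels' protocols, mirVana and AllPrep kits served for RNA extraction and libraries were made with the QIAseq Immune Repertoire RNA kit. The sources used here do not name the aligner or the caller, or say whether reads or molecules were counted. GRCh38, a human build, is named in the submitters' processing notes, so no coordinates are printed. All single segment names (25 TRBV, 67 TRAV, 12 TRBJ, 41 TRAJ) matched RefSeq's GRCm38.p6 gene table, and joined names were kept as written. CDR3s with an unresolved residue were left out (7 of 16987 concurrent and 0 of 2595 untreated counts). No 2 of the 7 columns were identical.

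The 7 brain samples held 302 to 3195 TRB and 363 to 4272 TRA counts. Counts of the parts of a number were summed, and V segments, J segments and CDR3 lengths reaching 10 counts in 2 or more libraries were tested in R 4.3.3 by the quasi-likelihood test of edgeR 4.0.16. The log total of a chain was the offset, and all 10 brain numbers of 5 treatments shared the spread, with Benjamini-Hochberg adjustment at 0.05. The SE of a log2 difference was derived as its absolute value divided by the square root of the edgeR F statistic. It therefore carries the shared spread, not that of the numbers compared alone. Measures per sample were averaged over parts and tested by exact two-sided permutation over numbers, adjusted over 6 primary and 7 secondary measures, using scipy 1.17.1, pandas 2.3.3 and numpy 2.4.6 under Python 3.11.15; plots used matplotlib 3.10.9. Both kinds of script were tested on simulated data. The share of the 10 largest clonotypes is a mean over 200 draws.

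Named segments were the 5 V and 3 J segments of lowest p in each direction, non-overlapping segments of 1% or more (at most 10), the iNKT and MAIT lists, and the most used segments. Named clonotypes were the 3 largest per chain and number and, of the beta clonotypes shared by both numbers of a group or by all 4, the 3 of highest mean share; clonotypes named as the largest of a segment were added after their values were seen. Samples, lists and rules were chosen with earlier results of these data known. Alternatives were DESeq2 1.42.0, TMM scaling, other filters, depths, definitions and units, and leaving out each number or sample.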

Additional observations from a re-analysis of the deposited data

Results flagged for a closer look

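In 5 of 44 groups of 4 concurrent samples, 1 sample lay farther from the others than Dixon's 95% limit for 4 samples. For independent samples chance would flag about 1 in 20 groups. These samples are parts of 2 numbers, so that rate does not apply and the flags are descriptive. The log2 alpha count of 1-2 was 12.06, the highest of the 4, with a gap of 0.867 of the group's range. The TRBJ2 share of 1-1 was 60.2%, the lowest, with a gap of 0.890 of the range. The TRBV4 share of 6-1 was 13.9%, with a gap of 0.859 of the range, and it holds the clonotype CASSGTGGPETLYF. The TRAV8D-2 share of 0.0521% in 6-2 and the TRAV2 share of 0.0468% in 1-2 were the only ones above 0 and rest on 1 and 2 counts.

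For 5 results every concurrent sample differed from every untreated sample one way in the brain and the other way in the ovary, where the concurrent group was number 1 and the untreated group number 3. These differences between the organs were not tested. Log2 beta richness was higher by 0.48 in concurrent brain samples and changed by -0.08 in the ovary, and log2 alpha richness by 0.74 and -0.02. The log2 ratio of alpha to beta counts differed by 0.18 in the brain and -0.42 in the ovary. TRAJ40 differed by 1.78 percentage points in the brain and -1.37 in the ovary, and TRAJ26 by -2.86 in the brain and 0.925 in the ovary.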

How the results depend on the processing

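The measures, counts of calls and named segments kept their direction and call in most settings, 208 of 224 for measures and counts and 483 of 505 for named segments. The beta and alpha counts, both richness values and the alpha concentration kept their direction in every setting run. The beta Simpson difference turned to -0.0317 when the parts were summed. Leaving out a number or sample, it ran from -0.241 to 0.485, the share of the 10 largest clonotypes from -2.93 to 5.83 points (beta) and from -11.7 to 0.779 (alpha), the iNKT share from -7.89 to 0.150 points, alpha CDR3 length from -0.109 to 0.0300 residues and the TRBJ2 share from -4.45 to 0.176 points. The only V call, of TRAV6-6 or TRAV6D-6, came without number 7. That fit left number 3 alone as untreated, so the call is not read as a result. J segments called went from 0 to 1. Called J segments were 1 with each part as its own library and 1 with only the 4 numbers compared, TRAJ18 in both. TRAJ23 was called without untreated sample 3-2. J calls of the fit without number 7 are likewise not read as a result. The cause of these changes was not tested.

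Log2 differences of named segments that changed sign ran over the left-out numbers and samples from -4.33 to 5.89 for TRAV12-1 or TRAV12N-1, from -2.46 to 0.20 for TRAV11N, from -7.31 to 4.16 for TRAV11, TRAV11D or TRAV11N, from -3.22 to 0.87 for TRAV11 or TRAV11D, from -0.54 to 0.15 for TRBV13-2, from -0.18 to 0.20 for TRBV29 and from -0.70 to 0.43 for TRBV13-3. The extremes of the rarest are fits against a group at 0 counts and are no bounds. TMM scaling turned TRBV29 to -0.0386 and TRAV7D-2 to 0.11, and leaving out the largest clonotype of each number turned TRBV13-3 to 0.21. No paired analysis was possible because the concurrent and untreated groups share no number. Untreated samples of 302 to 605 beta counts limit rare segments. A count of 0 of 1368 alpha counts allows up to 0.219% if counts are taken as independent.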
